A study of Mus musculus with 7 samples.

Results

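Genes of the meninges, of fibroblasts and of the extracellular matrix were followed in the cerebellum of mice with and without an L3mbtl3 knockout allele. They were chosen by symbol as collagens, matrix glycoproteins, proteoglycans and meningeal transporters, and they are 32 of the 55450 genes in the files. Messenger RNA was sequenced from C57BL/6 cerebella at postnatal day 15. The L3mbtl3 KO/+ group held 4 libraries from mice with 1 knockout and 1 wild-type allele of L3mbtl3, a chromatin reader with MBT domains. The WT group held 3 libraries from mice with wild-type L3mbtl3. The labels do not give the part of the gene that was deleted, the litters or the sex, so p-values measure the spread between these samples.

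The cerebellum is wrapped in meninges, whose fibroblasts lay down fibrillar collagens, proteoglycans and a basement membrane against the brain surface. Basement membranes are sheets in which a collagen IV network and a laminin network are linked by nidogens, and the vessels of the brain, lined by endothelial cells and pericytes, have them too. Meningeal fibroblasts are also known as a source of retinoic acid and insulin-like growth factor 2 and carry transporters for organic anions, sulfate and GABA. A cerebellum taken for RNA carries as much of the meninges as remains attached, and in bulk RNA fewer cells of a type and less RNA per cell cannot be told apart.

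Of the 32 members 0 passed the test of KO/+ against WT at an adjusted p of 0.05, beside 0.0% of the 16813 genes tested. KO/+ replicate 1 stood apart from the other 6 libraries, with 12 of the 13 collagens and nidogens at 26.2% to 59.8% of the median of the others and fibronectin at 28.7%. The median log2 deviation of the 13 genes from the other libraries was -1.17 there. It was also negative, by less, in KO/+ replicate 2 (-0.19) and WT replicate 3 (-0.14). Without KO/+ replicate 1, 9 of those 13 genes changed the sign of their fold change. The proteoglycans decorin and osteoglycin, the 3 transporters and the retinoic acid enzyme Aldh1a2 had positive fold changes with and without that library.

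The promoters of 5 members are shown because these genes stand on both sides of that pattern: 2 fibrillar collagen genes that were low in KO/+ replicate 1 (Col3a1 and Col5a1), and 3 genes with higher means in KO/+ (Ogn, Slc13a4 and Aldh1a2). Each run ends at the last base before the start of the gene, or before the nearest annotated exon for Slc13a4, and is written 5′ to 3′ on the gene's strand, from RefSeq on GRCm38.p6. The runs lie at chr1:45311288-45311537, chr2:27886175-27886424, chr13:49607765-49608014, chr6:35308132-35308376 (minus strand) and chr9:71215539-71215788, in the order printed. Capitals mark the letters TATAAA of the TATA box, CCAAT of the box named after them and GGGCGG of the box for Sp factors, on either strand, and matches in Ogn overlap each other.
Col3a1: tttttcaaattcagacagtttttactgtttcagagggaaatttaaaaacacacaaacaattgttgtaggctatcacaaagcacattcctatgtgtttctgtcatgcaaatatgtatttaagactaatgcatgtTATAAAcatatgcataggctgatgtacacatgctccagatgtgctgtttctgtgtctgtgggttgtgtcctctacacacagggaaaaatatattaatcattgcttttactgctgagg
Col5a1: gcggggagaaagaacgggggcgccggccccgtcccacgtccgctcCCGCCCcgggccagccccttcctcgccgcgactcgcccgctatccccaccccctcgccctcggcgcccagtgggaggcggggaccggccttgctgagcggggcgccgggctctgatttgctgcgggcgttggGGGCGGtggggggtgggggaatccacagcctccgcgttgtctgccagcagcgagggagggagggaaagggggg
Ogn: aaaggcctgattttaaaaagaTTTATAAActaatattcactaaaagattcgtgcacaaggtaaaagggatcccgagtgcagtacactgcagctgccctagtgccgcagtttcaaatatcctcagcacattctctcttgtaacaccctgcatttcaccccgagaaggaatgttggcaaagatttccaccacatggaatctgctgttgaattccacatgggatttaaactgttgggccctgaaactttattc
Slc13a4: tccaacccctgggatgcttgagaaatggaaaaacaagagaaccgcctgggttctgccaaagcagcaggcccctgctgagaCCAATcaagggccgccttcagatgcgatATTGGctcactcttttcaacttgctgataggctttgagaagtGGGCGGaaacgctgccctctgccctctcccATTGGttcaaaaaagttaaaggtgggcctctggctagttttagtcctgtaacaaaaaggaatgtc
Aldh1a2: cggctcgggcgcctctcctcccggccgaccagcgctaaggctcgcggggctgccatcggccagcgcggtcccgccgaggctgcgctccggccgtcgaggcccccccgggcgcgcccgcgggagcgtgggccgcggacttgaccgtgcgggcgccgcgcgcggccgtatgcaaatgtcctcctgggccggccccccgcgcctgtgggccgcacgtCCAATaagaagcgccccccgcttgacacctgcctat

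Col3a1 and Ogn held TATAAA but neither CCAAT nor GGGCGG, Col5a1 held GGGCGG at 2 places, Slc13a4 held CCAAT at 3 places and GGGCGG at 1, and Aldh1a2 held CCAAT at 1. The table of promoters had windows for 24 of the 32 members, 32 windows in all. TATAAA was found in the 250 bases before the start in 12.5% of the member windows, against 12.4% of all 32851 windows. CCAAT was found in 34.4% against 33.8%, and GGGCGG in 43.8% against 32.7%. GTGGGAA is the core sequence bound by the Notch transcription factor RBPJ, with which L3mbtl3 is known to interact. It was found in only 4 of the 32 member windows (12.5%), from Fbn1, Igf2 and Slc6a13, against 5.42% of all windows. So few windows do not show a difference in share. These are matches of letters and not binding sites.

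All 32 members passed the filter on low counts that left 16813 genes. The libraries held 29248360 to 43761792 expected counts, and the counts of members ranged from 69 to 9519 per library. The targeted gene L3mbtl3 averaged 20.6 ± 2.55 CPM (counts scaled to library size with TMM factors) in KO/+ libraries and 24.2 ± 2.25 CPM in WT libraries (SD, n = 4 and 3), a log2 fold change of -0.23 ± 0.12 (SE, unadjusted p = 0.085, edgeR's quasi-likelihood test). Since the deleted part is not given, this level does not check the labels. Granule neuron markers, which check the labelled tissue, summed to 4317 to 6582 CPM in every library. Inferred from X- and Y-linked genes, 1 of 4 KO/+ libraries and 2 of 3 WT libraries came from females. The female KO/+ library was replicate 1, and the male WT library was replicate 2. Within the KO/+ libraries, female sex and replicate 1 therefore cannot be told apart.

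Levels between genes are compared per length, in TPM (the deposited unit scaled by transcript length and library size, given as the median of the 7 libraries). Igf2 was the most abundant member at 151 TPM, followed by Mgp at 71.4, Dcn at 42.3, Nid1 at 39.8 and Col1a2 at 30.3 TPM. Col4a1 had 27.3 and Col3a1 25.2 TPM, and these neighbours overlapped in their libraries. Slc22a6, Postn, Aspn and Col6a3 were the least abundant, at 3.14, 2.66, 2.32 and 1.70 TPM. Dcn, the gene that marks meningeal fibroblasts here, was present in every library, at 42.3 to 54.7 TPM in KO/+ and 36.1 to 41.2 TPM in WT libraries, and all 27 genes of a further list of meningeal fibroblast markers passed the filter.

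The members varied more between libraries than most genes did. The highest library exceeded the lowest by a median of 2.18 times over the members, with a range of 1.40 times for Slc6a13 to 4.82 times for Col6a3, against 1.43 times over all genes tested. Their median biological coefficient of variation, the spread between libraries beyond counting error, was 23.2%, against 15.2% over all genes. The fibrillar collagens had the highest median of the role groups, 31.1%, and the transporters and Aldh1a2 the lowest, 16.9%. The heat map of members by library shows that a single column, KO/+ replicate 1, carries the darkest collagen values.

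**Figure D1:**
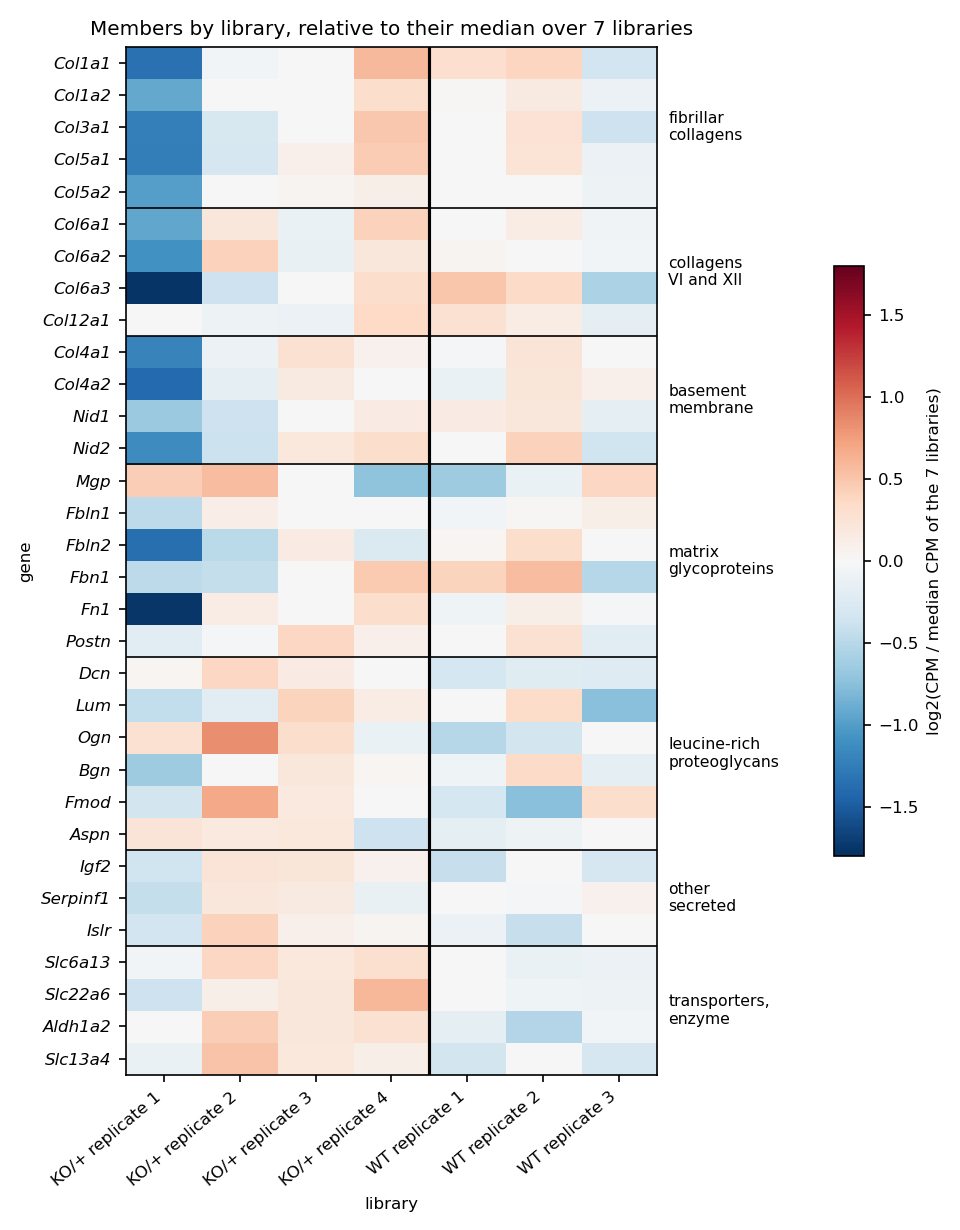
Each row is a member and each column a library, with the 4 KO/+ libraries left of the line and the 3 WT libraries right of it; colour gives log2 of CPM over the gene's median of the 7 libraries. KO/+ replicate 1 was the lowest library for 12 of the 13 collagens and nidogens, beside 16.7% of all genes tested, while the transporter rows and Aldh1a2 are mostly above 0 in KO/+ replicates 2 to 4.

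Type I collagen, the main fibril protein of connective tissue, is built of Col1a1 and Col1a2 chains. Col1a1 had 19.7, 48.1, 49.7 and 74.2 CPM in KO/+ libraries, against 61.2, 64.9 and 39.3 CPM in WT libraries. KO/+ held both its lowest and its highest library, so the groups overlapped. Its log2 fold change was -0.20 ± 0.38 (SE, 95% interval -1.07 to 0.67). Col1a2 had 49.6, 93.5, 94.2 and 118 CPM in KO/+ libraries, against 95.6, 105 and 87.8 CPM in WT libraries, with a log2 fold change of -0.12 ± 0.25. Per length, Col1a1 stood at 0.338 to 0.546 of Col1a2, lowest in KO/+ replicate 1 and highest in WT replicate 1.

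Col3a1, the type III fibrillar collagen of soft tissue and vessel walls, had 37.2, 71.0, 87.5 and 122 CPM in KO/+ libraries, against 87.0, 104 and 66.9 CPM in WT libraries. It followed the order of Col1a1 at both ends, lowest in KO/+ replicate 1 and highest in KO/+ replicate 4. Its log2 fold change was -0.12 ± 0.34. Col5a1 and Col5a2, chains of the type V collagen that starts and limits fibril growth, had log2 fold changes of -0.19 ± 0.33 and -0.12 ± 0.24. Col5a2 was nearly level in 6 libraries, with 16.1, 16.7 and 17.3 CPM in KO/+ replicates 2 to 4 and 16.1, 16.2 and 15.2 CPM in WT libraries, and it had 8.08 CPM in KO/+ replicate 1. All 5 fibrillar collagen genes were lowest in KO/+ replicate 1 and highest in KO/+ replicate 4, which was the highest library for 13.7% of all genes tested.

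Collagen VI, whose chains form beaded microfibrils around cells, followed in part. Col6a2 had 11.1, 31.7, 21.7 and 27.2 CPM in KO/+ libraries, against 24.4, 23.7 and 22.8 CPM in WT libraries, so that the WT libraries lay close together inside the spread of KO/+. The log2 fold changes were -0.05 ± 0.27 for Col6a1 and -0.04 ± 0.30 for Col6a2. Col6a3 had 2.14, 5.63, 7.30 and 9.07 CPM in KO/+ libraries, against 10.3, 9.32 and 4.91 CPM in WT libraries, with a log2 fold change of -0.44 ± 0.44, the lowest among the collagens. Col12a1, a fibril-associated collagen, was the exception: it had 30.9 CPM in KO/+ replicate 1, inside the 27.5 to 39.6 CPM of the other 6 libraries.

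Col4a1 and Col4a2, the chains of the collagen IV network of every basement membrane, are divergent neighbours whose annotated ends overlap by 22 bases on chromosome 8. Col4a1 had 48.5, 103, 135 and 118 CPM in KO/+ libraries, against 109, 131 and 111 CPM in WT libraries. Col4a2 had 31.0, 72.8, 91.8 and 82.0 CPM in KO/+ libraries, against 75.1, 95.4 and 86.9 CPM in WT libraries. Without KO/+ replicate 1 the KO/+ and WT ranges of both genes overlapped widely. Their log2 fold changes were -0.21 ± 0.29 and -0.31 ± 0.31. Per length the ratio of Col4a1 to Col4a2 kept within 1.27 to 1.52 over the 7 libraries.

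Nid1 and Nid2 encode nidogens, the links between the laminin and collagen IV networks. Nid1 had 91.4, 112, 145 and 160 CPM in KO/+ libraries, against 162, 168 and 129 CPM in WT libraries, a log2 fold change of -0.26 ± 0.19 (unadjusted p = 0.21). Nid2 had 6.57, 11.1, 16.5 and 17.96 CPM in KO/+ libraries, against 14.5, 19.4 and 11.3 CPM in WT libraries, a log2 fold change of -0.21 ± 0.33. KO/+ replicate 1 was again the lowest for both. All 13 collagens and nidogens had a negative fold change, with a median of -0.19, beside 48.8% of all genes with a positive one and a median of -0.005 over all genes tested.

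**Figure D2:**
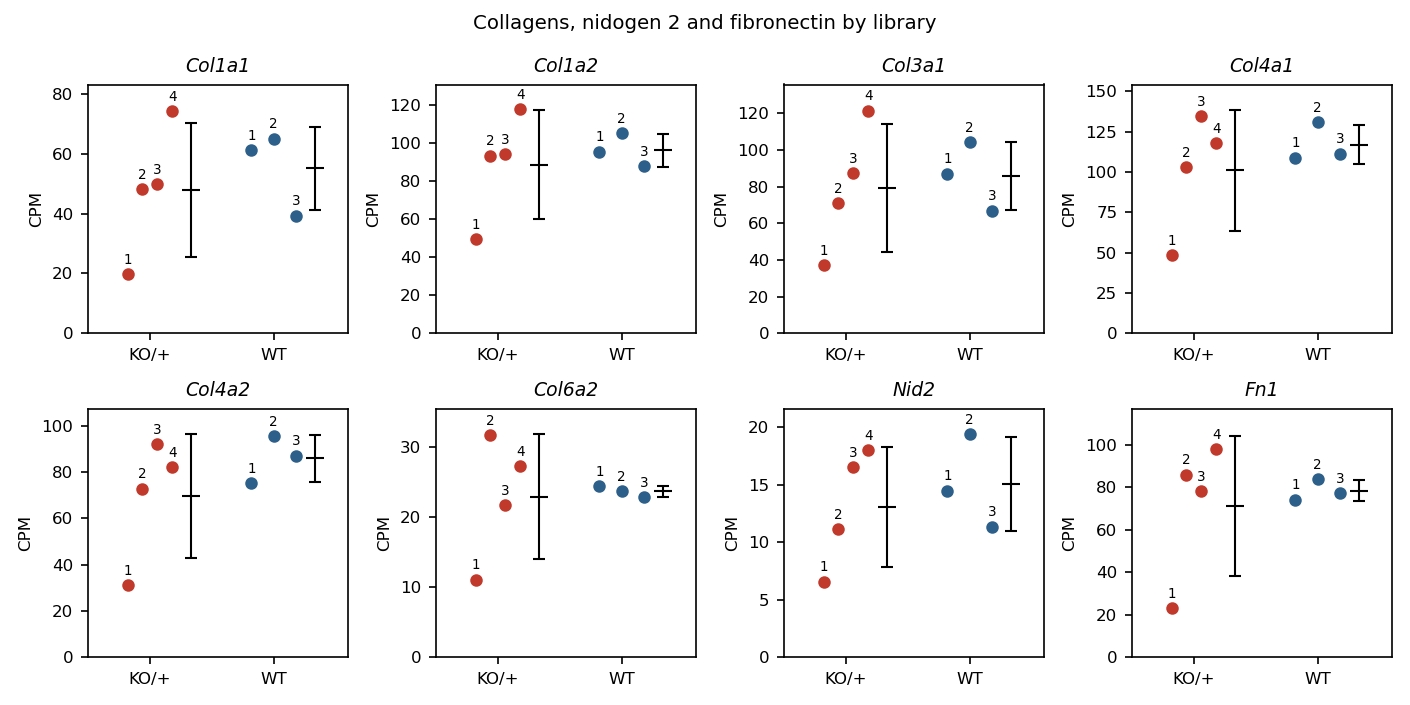
Points are CPM in single libraries, numbered by replicate, for 6 collagens, nidogen 2 and fibronectin in KO/+ (left, n = 4) and WT (right, n = 3); bars give the mean ± SD and axes start at 0. The point of KO/+ replicate 1 lies lowest in every panel, at 23.2 CPM for Fn1 where the other 6 libraries have 74.1 to 97.8 CPM.

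Among the glycoproteins, Fn1, the adhesive protein that integrins bind, showed the gap most clearly. It had 23.2, 86.0, 78.2 and 97.8 CPM in KO/+ libraries, against 74.1, 83.7 and 77.3 CPM in WT libraries. KO/+ replicate 1 stood at 28.7% of the median of the others, and the remaining 6 libraries overlapped, so the log2 fold change was -0.14 ± 0.40. Fbln2, a fibulin of basement membranes and elastic fibres, had 2.81, 5.12, 7.92 and 5.99 CPM in KO/+ libraries, against 7.33, 8.96 and 7.18 CPM in WT libraries. Its log2 fold change of -0.52 ± 0.30 was the lowest of all members (unadjusted p = 0.12), and it was still -0.30 ± 0.20 without KO/+ replicate 1.

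Fbln1, a related fibulin, and Fbn1, the fibrillin of elastic microfibrils, had log2 fold changes of -0.10 ± 0.15 and -0.28 ± 0.30. Postn, a matricellular protein of remodelling tissue, stood at 0.03 ± 0.18. Mgp, a small inhibitor of calcification, ran against the collagens: it had 17.1, 18.5, 12.6 and 7.64 CPM in KO/+ libraries, against 8.06, 11.6 and 16.4 CPM in WT libraries. Its lowest library was KO/+ replicate 4, where the fibrillar collagens were highest, and its log2 fold change was 0.22 ± 0.33.

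The small leucine-rich proteoglycans bind collagen fibrils and set their spacing. Dcn, decorin, had 42.8, 54.4, 46.5 and 41.8 CPM in KO/+ libraries, against 33.5, 36.0 and 35.7 CPM in WT libraries. Every KO/+ library, replicate 1 included, lay above every WT library. It averaged 46.4 ± 5.69 CPM in KO/+ and 35.1 ± 1.35 CPM in WT libraries (SD, n = 4 and 3). Its log2 fold change was 0.40 ± 0.10 (95% interval 0.17 to 0.64). By edgeR's quasi-likelihood test its unadjusted p of 0.0042 was the smallest of the members, and its adjusted p over all genes was 0.957.

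Ogn, osteoglycin, had 9.49, 14.0, 9.84 and 7.24 CPM in KO/+ libraries, against 5.51, 6.26 and 7.88 CPM in WT libraries. KO/+ replicate 4 lay below WT replicate 3, so the groups overlapped, and the log2 fold change was 0.63 ± 0.23 (unadjusted p = 0.025). Fmod, fibromodulin, had 9.44, 19.1, 13.5 and 11.9 CPM in KO/+ libraries, against 9.58, 7.09 and 14.8 CPM in WT libraries, with a log2 fold change of 0.36 ± 0.30. Aspn, Lum and Bgn, asporin, lumican and biglycan, had log2 fold changes of 0.16 ± 0.18, 0.08 ± 0.29 and -0.12 ± 0.20. Thus 5 of the 6 proteoglycans had a positive value and 2 had an unadjusted p under 0.05.

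The transporters and Aldh1a2 all had positive fold changes. Slc6a13, the GABA and taurine transporter GAT2, had 12.9, 17.1, 15.1 and 16.3 CPM in KO/+ libraries, against 13.3, 12.2 and 12.3 CPM in WT libraries, with a log2 fold change of 0.28 ± 0.12 (unadjusted p = 0.041). Slc13a4, a sulfate transporter, had 12.9, 19.9, 15.96 and 15.0 CPM in KO/+ libraries, against 11.1, 13.9 and 11.3 CPM in WT libraries, with a log2 fold change of 0.40 ± 0.16 (unadjusted p = 0.040). In both genes only KO/+ replicate 1 lay below a WT library. Slc22a6, the organic anion transporter OAT1, had 5.82, 8.16, 8.75 and 11.5 CPM in KO/+ libraries, against 7.56, 7.18 and 7.08 CPM in WT libraries, with a log2 fold change of 0.23 ± 0.21.

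Aldh1a2, the retinaldehyde dehydrogenase with which the meninges make retinoic acid, had 10.3, 14.0, 11.9 and 12.4 CPM in KO/+ libraries, against 9.24, 7.20 and 10.0 CPM in WT libraries. The groups did not overlap, although KO/+ replicate 1 was close to WT replicate 3. The log2 fold change was 0.46 ± 0.15 (95% interval 0.11 to 0.82, unadjusted p = 0.016). In TPM, KO/+ replicate 1 at 7.49 lay below WT replicate 3 at 7.89. Summed over the 4 genes of this role group, the levels were 41.9, 59.2, 51.7 and 55.1 CPM in KO/+ libraries, against 41.1, 40.6 and 40.7 CPM in WT libraries.

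Of the other secreted proteins, Igf2, a growth factor made by meninges, choroid plexus and vessel walls, had 163, 245, 242 and 220 CPM in KO/+ libraries, against 156, 209 and 170 CPM in WT libraries. KO/+ replicate 1 lay below WT replicates 2 and 3, so the groups overlapped, and the log2 fold change was 0.29 ± 0.16 (unadjusted p = 0.12). Islr, an immunoglobulin-like leucine-rich repeat protein of mesenchymal cells, had 13.3, 22.6, 18.02 and 17.5 CPM in KO/+ libraries, against 15.7, 12.6 and 16.9 CPM in WT libraries, a log2 fold change of 0.24 ± 0.18. Serpinf1, which encodes pigment epithelium-derived factor, stood at -0.04 ± 0.16. The choroid plexus markers summed to 1485, 1081, 765 and 51.9 CPM in KO/+ libraries and 46.3, 1088 and 52.6 CPM in WT libraries. Igf2 at 220 CPM and Slc13a4 at 15.0 CPM in KO/+ replicate 4, where the choroid plexus sum was 51.9 CPM, were above their WT means of 178 and 12.1 CPM. Among the WT libraries both genes were highest in replicate 2, at 209 and 13.9 CPM, which was the WT library with the high plexus sum. Ttr, the most abundant marker of the plexus, had 3.45 CPM in KO/+ replicate 4 and Kcne2 was at 0 there. The part of choroid plexus content in these values was not tested.

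**Figure D3:**
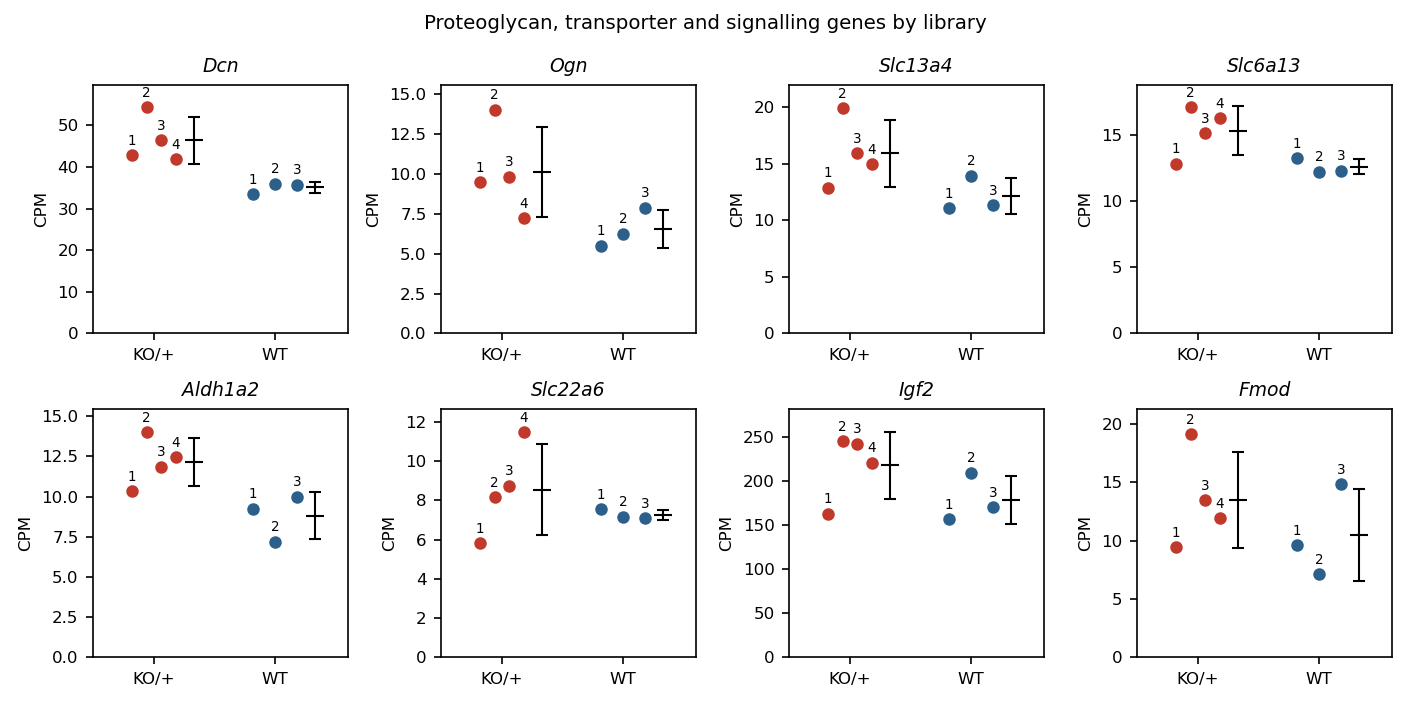
Points are CPM in single libraries, numbered by replicate, for 8 proteoglycan, transporter, enzyme and growth factor genes in KO/+ (left, n = 4) and WT (right, n = 3); bars give the mean ± SD and axes start at 0. Dcn and Aldh1a2 do not overlap between the groups, while the other genes overlap in at least 1 library.

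Over all members, 0 of 32 passed an adjusted p of 0.05 with edgeR's quasi-likelihood test, as did 0.0% of the 16813 genes, and the adjusted p ranged from 0.957 to 0.988. At an unadjusted p under 0.05, 5 members were higher in KO/+ (Dcn, Ogn, Aldh1a2, Slc13a4 and Slc6a13) and 0 were lower, beside 1.25% of all genes higher and 1.9% lower. In 2 members, Dcn and Aldh1a2, every KO/+ library was above every WT library, and in 0 members below, beside 2.16% and 1.8% of all genes. The count of 5 was 7 without KO/+ replicate 1, beside 0.518% of all genes higher in that fit, and 3 without KO/+ replicate 4, beside 3.59%. It was 2 without KO/+ replicate 2, WT replicate 1 or WT replicate 2, beside 0.36%, 0.659% and 0.733% of all genes. It was 4 without WT replicate 3, beside 3.17%, and 3 without KO/+ replicate 3, beside 0.901%. Without KO/+ replicate 3, 1 member was lower, beside 1.56% of all genes. Of the 32 fold changes, 13 were positive and 19 negative, with a median of -0.05, beside 48.8% positive and a median of -0.005 over all genes.

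KO/+ replicate 1 was the lowest library for 19 of the 32 members, beside 16.7% of all genes. It was below 50% of the median of the other 6 libraries for 12 members, which is 37.5% of them, beside 2.71% of all genes. The highest library was KO/+ replicate 2 for 12 members, beside 12.8% of all genes, and KO/+ replicate 4 for 9 members, beside 13.7%. The 12 low members of KO/+ replicate 1 were 10 of the 13 collagens and nidogens, with Fn1 and Fbln2. Col5a2 and Col6a1 stood just inside that limit at 49.99% and 49.9%, and Col1a2 just outside it at 52.3%. In the same library Dcn stood at 110%, Aspn at 121%, Ogn at 126% and Mgp at 141% of the others. Per length, Dcn was therefore 8.66 times Col1a1 in KO/+ replicate 1, against 4.49, 3.69 and 2.25 times in KO/+ replicates 2 to 4 and 2.18, 2.19 and 3.86 times in WT libraries.

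Most low members of KO/+ replicate 1 were long by their most abundant transcript. Of the 13 members whose most abundant transcript has at least 4000 bases, 10 were below 50%, against 2 of the 19 shorter ones. This length leaves out other transcripts. Col12a1, at 98.0% in KO/+ replicate 1, counts with 1784 bases, although its 11511-base transcript had a mean share of 34.5%. Fbln2, at 38.7%, counts with 1612 bases, although transcripts of 4786 and 4644 bases had mean shares of 29.6% and 24.8%. Across the 32 members, the log2 deviation of this library from the median of the others had r = -0.69 and rho = -0.69 with log transcript length, and r = -0.58 with GC content. The other libraries also showed a relation with length among the members, with r = -0.58, -0.15 and 0.65 in KO/+ replicates 2 to 4 and 0.64, 0.50 and -0.41 in WT libraries. Across the 14469 genes of at least 1 CPM, KO/+ replicate 1 had r = -0.26 and rho = -0.35 with length and r = -0.09 with GC content, and the other libraries had r = -0.14 to 0.14 with length. Genes share the library, its depth and its base composition, so they are not independent points and these values are a description. By length, the median deviation of all genes in this library was 0.11 under 1000 bases and -0.19 from 6000 bases, where that of the 7 members was -1.23. The part of transcript length or RNA quality in the low collagen values was not tested.

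**Figure D4:**
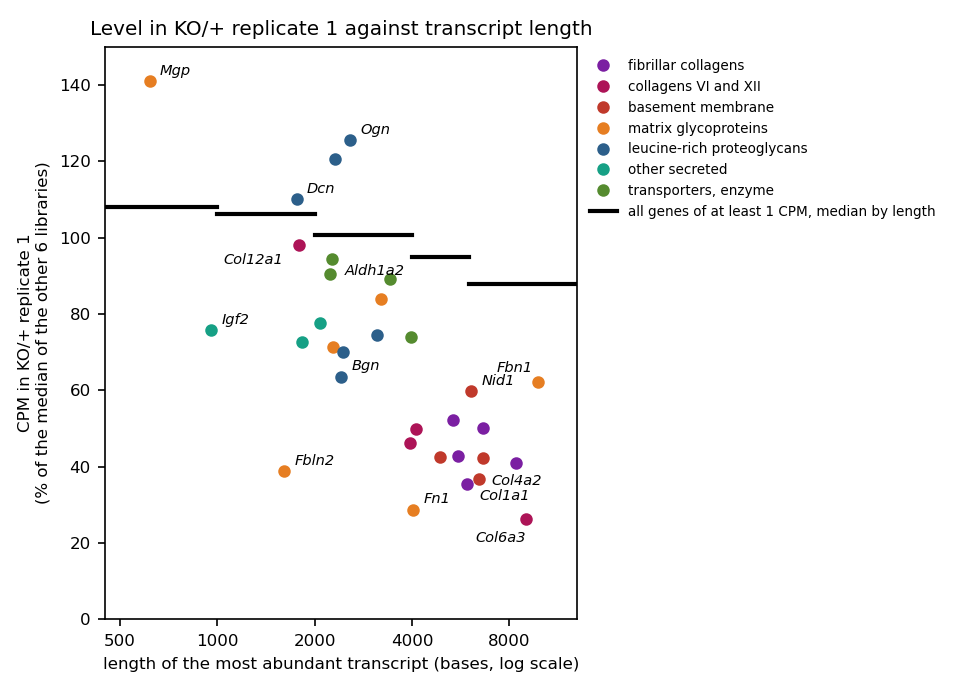
Each point is a member, coloured by role, with the length of its most abundant transcript (log scale) against its CPM in KO/+ replicate 1 as a percent of the median of the other 6 libraries; black lines give the median of all genes of at least 1 CPM by length. Members plotted from 4000 bases lie between 26.2% and 62.1%, below the black lines, and the short Mgp lies highest at 141%. Col12a1, at 98.0%, is plotted at 1784 bases, although it also has a transcript of 11511 bases.

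Genes that act with the members were read in that library beside the 16.7% of all genes that were lowest there. Of 17 other basement membrane genes, among them laminins, perlecan and agrin, 14 were lowest in KO/+ replicate 1, and Col18a1 and Lamc1 stood there at 44.7% and 55.2% of the other libraries. None of the 17 passed the test, 0 had an unadjusted p under 0.05, and 1 had a positive fold change, with a median of -0.27. Of 16 matrix receptors and proteases 12 were lowest there, and of 26 genes for collagen processing and cross-linking 11 were, with 0 of either list at an unadjusted p under 0.05. The 26 processing genes had a median log2 deviation of -0.24 there, but the 2 highest in TPM were not low. Sparc, a collagen-binding glycoprotein, stood there at 122% of the other libraries, and Ppib, a prolyl isomerase of the endoplasmic reticulum, at 107%. Among markers of vessel cells, 7 of 11 for pericytes and smooth muscle and 6 of 12 for endothelial cells were lowest there. Their median log2 deviations in that library were -0.52 and -0.32, against -0.55 for the members and -0.001 for all genes tested. Their sums there, 294 and 311 CPM, were within or just below the 298 to 407 and 299.6 to 426 CPM of the others, and no tested marker of either list was at 0 in any library. The dividing progenitor markers summed to 228, 207, 466 and 523 CPM in KO/+ and 566, 594 and 203 CPM in WT libraries. The low sums were those of KO/+ replicates 1 and 2 and WT replicate 3. In these libraries the median log2 deviation of the collagens and nidogens was also negative, at -1.17, -0.19 and -0.14, against 0.03 to 0.40 in the others. The part of any of these cell types was not tested.

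Without KO/+ replicate 1, 26 of the 32 members had a positive fold change, beside 48.6% of all genes, and the median was 0.11. The sign changed for 13 members, 9 of them collagens or nidogens, and Col6a2 stood at 0.18 ± 0.14, Col1a1 at 0.06 ± 0.24 and Fn1 at 0.16 ± 0.10. At an unadjusted p under 0.05, 7 members were higher (the 5 named above with Igf2 and Slc22a6) and 0 lower, beside 0.518% and 0.554% of all genes, and 0 passed adjustment. Igf2 reached 0.40 ± 0.13 and Slc6a13 0.36 ± 0.10. Fbln2, Fbn1, Col6a3, Nid1, Col4a2 and Col12a1 kept negative values, between -0.30 and -0.02. Inferred sex is unevenly spread over the groups. KO/+ replicate 1 was the only female KO/+ library, and WT replicate 2 the only male WT library. A fit with sex leans on these libraries and is not independent of KO/+ replicate 1. In that fit the median of the members was -0.31. Then 2 members (Dcn and Aldh1a2) were higher and 6 (Col4a1, Col4a2, Nid1, Nid2, Fbln2 and Bgn) lower at an unadjusted p under 0.05, beside 1.85% of all genes higher and 2.33% lower in that fit.

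**Figure D5:**
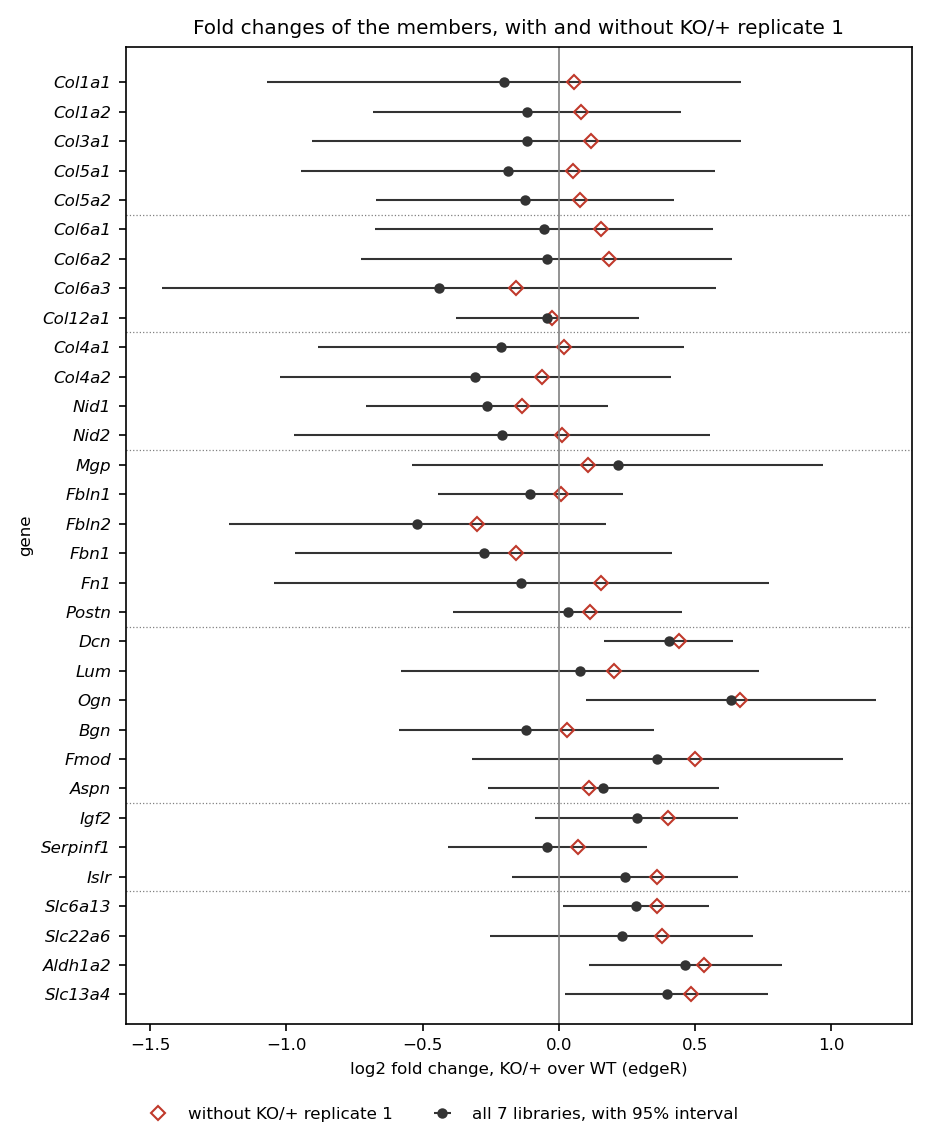
Filled points give the log2 fold change of KO/+ over WT from all 7 libraries with its 95% interval, and open diamonds the value without KO/+ replicate 1, by role from fibrillar collagens (top) to transporters and Aldh1a2 (bottom). All 13 collagens and nidogens are left of 0 with all libraries and 9 of them are right of 0 without that library, while Dcn, Ogn, Slc6a13, Aldh1a2 and Slc13a4 have intervals above 0.

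Other meningeal fibroblast markers were read from a list of 27 genes. Of these, 18 had a positive fold change, beside 48.8% of all genes, with a median of 0.24. At an unadjusted p under 0.05, 3 were higher in KO/+ (Twist1, Crabp2 and Osr1) and 0 lower, beside 1.25% and 1.9% of all genes. Twist1, a mesenchymal transcription factor, had 1.56, 1.75, 1.38 and 1.49 CPM in KO/+ libraries, against 1.13, 0.650 and 0.795 CPM in WT libraries. The groups did not overlap, as was so in this direction for 2.16% of all genes tested. The log2 fold change of Twist1 was 0.85 ± 0.24 (unadjusted p = 0.0068, edgeR's quasi-likelihood test). Crabp2, a retinoic acid carrier, averaged 3.29 ± 0.994 CPM in KO/+ and 1.77 ± 0.618 CPM in WT libraries. The markers highest in TPM differed in sign: Cldn11, a claudin that oligodendrocytes also express, averaged 350 ± 103 CPM in KO/+ and 361 ± 151 CPM in WT libraries (log2 fold change -0.04 ± 0.31), and Slc16a11, a monocarboxylate transporter family member, 34.0 ± 11.0 CPM in KO/+ and 25.9 ± 5.17 CPM in WT libraries (0.39 ± 0.25).

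The pathways of 2 members gave few further differences. Of 17 genes of the retinoic acid pathway 14 were tested, 7 with a positive fold change, and Rbp4, the retinol carrier of plasma, was the 1 gene with an unadjusted p under 0.05 (4.09 ± 0.969 CPM in KO/+, 2.72 ± 0.266 CPM in WT libraries, log2 fold change 0.59 ± 0.21). Of 16 IGF pathway genes 15 were tested. Igfbp6, a binding protein with preference for IGF2, averaged 23.5 ± 3.45 CPM in KO/+ and 17.7 ± 2.28 CPM in WT libraries, without overlap. Irs2, a substrate of the insulin and IGF1 receptors, averaged 54.3 ± 4.54 CPM in KO/+ and 64.8 ± 7.27 CPM in WT libraries, again without overlap, and Igf2r, the clearance receptor of IGF2, was the third gene with an unadjusted p under 0.05 (log2 fold change -0.34). H19, the imprinted neighbour of Igf2, averaged 15.4 ± 1.58 CPM in KO/+ and 12.7 ± 2.60 CPM in WT libraries. None of these genes passed adjustment by edgeR's quasi-likelihood test (adjusted p = 0.957 for each named with an unadjusted p under 0.05). Of all genes tested, 1.25% were higher and 1.9% lower in KO/+ at an unadjusted p under 0.05. Every KO/+ library lay above every WT library for 2.16% of all genes, and below for 1.8%. Of 16 TGF beta signalling genes 0 had an unadjusted p under 0.05 and 3 a positive fold change.

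Red blood cell markers were read beside the members with positive values. They summed to 992, 1391, 926 and 487 CPM in KO/+ libraries and 562, 514 and 593 CPM in WT libraries, and 4 of 6, Hbb-bs, Hbb-bt, Hba-a2 and Alas2, had an unadjusted p under 0.05. All 4 were higher in KO/+, beside 1.25% of all genes, and none of them passed adjustment. Within the KO/+ libraries Dcn and Ogn were highest in replicate 2 and lowest in replicate 4, as was that sum. In replicate 4 Dcn, at 41.8 CPM, lay above every WT library, and Ogn, at 7.24 CPM, lay below WT replicate 3 at 7.88 CPM. The part of blood content in these values was not tested.

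The members had 153 annotated transcripts, some of them at 0 in every library, of which 60 were tested among 44375. None passed adjustment, and 4 had an unadjusted p under 0.05, all higher in KO/+, beside 2.71% of all transcripts in either direction: Dcn-201, Aldh1a2-201, Ogn-201 and Igf2-208. Igf2 was read mainly as 2 transcripts. Igf2-208 made up 51.2 ± 2.25% of Igf2 transcripts in KO/+ and 47.2 ± 1.47% in WT libraries, and Igf2-201 made up 42.2 ± 3.70% in KO/+ and 46.9 ± 2.04% in WT libraries (SD, n = 4 and 3). The log2 fold changes were 0.50 ± 0.15 for Igf2-208 and 0.24 ± 0.19 for Igf2-201.

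In 20 members a single transcript made up at least 90% of the gene. Besides Igf2, 7 members had at least 2 transcripts of 20% or more. Fn1-202 made up 33.1 ± 5.42% of Fn1 in KO/+ and 32.3 ± 4.70% in WT libraries, and Fn1-203 made up 22.5 ± 1.17% in KO/+ and 17.3 ± 5.96% in WT libraries. Fbln1-202 made up 76.5 ± 4.21% in KO/+ and 80.2 ± 2.94% in WT libraries, with Fbln1-201 as the rest. Fbln2-206, Fbln2-201 and Fbln2-202 made up 44.3, 29.4 and 23.97% in KO/+ and 44.1, 30.0 and 25.9% in WT libraries. For Col12a1, the 1784-base Col12a1-204 made up 39.9 ± 4.76% in KO/+ and 41.5 ± 2.79% in WT libraries, the 11511-base Col12a1-201 33.2 ± 3.62% in KO/+ and 36.2 ± 1.15% in WT, and Col12a1-203 24.05 ± 5.13% in KO/+ and 19.5 ± 2.73% in WT. Postn-203 and Postn-204 made up 42.7 and 31.8% in KO/+ and 44.8 and 30.9% in WT libraries.

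The shares of Serpinf1-201, Serpinf1-202 and Serpinf1-208 were 54.5, 21.0 and 22.2% in KO/+ and 48.9, 26.8 and 21.7% in WT libraries. Col6a3-202 made up 69.1 ± 16.2% in KO/+ and 72.5 ± 16.9% in WT libraries, with the 646-base Col6a3-206 at 23.8 ± 20.6% in KO/+ and 17.7 ± 16.3% in WT. The SDs for Col6a3 exceed the differences. How RSEM divided reads between overlapping transcripts was not modelled.

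The members lie on 14 chromosomes, and some are neighbours on GRCm38. Col3a1 (chr1:45311538-45349706) and Col5a2 (chr1:45374321-45503282) lie 24.6 kb apart on opposite strands, Ogn and Aspn lie 40.5 kb apart on chromosome 13, and Col6a1 and Col6a2 lie 85.2 kb apart on chromosome 10. Dcn (chr10:97479609-97518143) and Lum (chr10:97565128-97572703) lie 47.0 kb apart. Dcn had a log2 fold change of 0.40 ± 0.10 and its neighbour Lum 0.08 ± 0.29. Dcn, Lum, Col6a1 and Col6a2 share chromosome 10 with L3mbtl3 (chr10:26274468-26375971), from which they lie 71.1, 71.2, 50.3 and 50.2 Mb away.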

How the data were processed

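Polyadenylated RNA was sequenced with a directional kit, per the labels' protocols, in 4 L3mbtl3 KO/+ and 3 WT cerebella. Trimmomatic 0.39, STAR 2.5.2a, RSEM 1.3.1 and bcl2fastq are named in the submitters' processing notes, with mm10 and GRCm38. The strand option was not given in the sources used here. Deposited expected counts and TPM values are RSEM's estimates per gene and transcript, per the file headers, and the deposited isoform percent is a transcript's share of its gene. The tables of the whole series were not used.

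Expected counts were rounded. Genes were filtered with filterByExpr, scaled by TMM factors and compared by the robust quasi-likelihood test of edgeR 4.0.16 (glmQLFTest), and p-values were adjusted after Benjamini and Hochberg over all genes, with a threshold of 0.05. Values printed with ± are SE for fold changes and SD for levels. Deviations are log2(CPM + 0.5) minus the median of the other 6 libraries. Positions are those of GENCODE M21 (GRCm38), and promoters are those of RefSeq (GRCm38.p6). No pair of libraries agreed within sampling noise. Totals of 29248360 to 43761792 counts set the depth; counts of members were at least 69. The scripts were tested on simulated data.

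Members and lists were chosen with earlier results of these data known. Named genes were all members, L3mbtl3, and from each list the 2 genes with the smallest p and the 2 with the highest TPM; Osr1, Igf2r and Hbb-bt, and the markers named to describe a list, were added after their values were seen. The replicate numbers did not pair the libraries. Alternatives were RLE scaling, library totals alone, other filters, DESeq2 1.42.0, limma-trend (limma 3.58.1) on log2(TPM + 1), the replicate block, inferred sex as a covariate and leaving out each library.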

Additional observations from a re-analysis of the deposited data

Results flagged for a closer look

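In 2 of the 32 members, 1 of the 4 KO/+ libraries lay far from the other 3, with a gap to the nearest that took up more of the group's range than Dixon's 95% critical value for 4 samples. Chance alone gives such a gap in about 1 of 20 groups. Col5a2 had 8.08 CPM in KO/+ replicate 1, and the gap was 0.869 of the range. Aspn had 2.33 CPM in KO/+ replicate 4, beside 3.53, 3.42 and 3.45 CPM in the other KO/+ libraries, and the gap was 0.908 of the range. Its neighbour on chromosome 13, Ogn, was also lowest among KO/+ libraries in replicate 4, at 7.24 CPM, without such a gap.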

How the results depend on the processing

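No member passed adjustment under any alternative run. With the replicate block 1 gene was called among all genes (Eif3j2, named after its value was seen); the block is a fit over numbers that did not pair the libraries, whose same-numbered deviations correlated at 0.086, -0.17 and -0.02. Under the block 3 members had an unadjusted p under 0.05, all higher in KO/+, beside 2.13% of all genes higher, and the median of all members was -0.16. Leaving out 1 library at a time gave 0 to 1 genes called (Eif3j2, Wdfy1 or Fam220a), 0 members called, a median of the members of -0.16 to 0.11 and 0 to 2 transcripts called. By DESeq2, 0 genes passed adjustment and 631 had an unadjusted p under 0.05, against 530 by edgeR's quasi-likelihood test. With inferred sex as a covariate, Lum stood at -0.17 and Postn at -0.12, with signs opposite to the fit without it; 254 of 256 member values under alternatives that keep all libraries kept their sign.

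Leaving out a library changed the sign of 17 members. Their log2 fold changes ranged from -0.50 to 0.057 for Col1a1, -0.29 to 0.081 for Col1a2, -0.41 to 0.12 for Col3a1, -0.39 to 0.019 for Col4a1, -0.45 to 0.052 for Col5a1, -0.22 to 0.077 for Col5a2, -0.25 to 0.15 for Col6a1, -0.24 to 0.18 for Col6a2, -0.17 to 0.054 for Col12a1 and -0.41 to 0.012 for Nid2. They ranged from -0.34 to 0.16 for Fn1, -0.17 to 0.0081 for Fbln1, -0.23 to 0.042 for Bgn, -0.13 to 0.069 for Serpinf1, -0.17 to 0.32 for Lum, -0.012 to 0.51 for Mgp and -0.096 to 0.16 for Postn. Leaving out KO/+ replicate 1 turned 13 of these, and of those 13, Col3a1, Bgn and Nid2 also changed sign without WT replicate 2. The other 15 members, among them Dcn (0.32 to 0.44), Ogn (0.44 to 0.79) and Aldh1a2 (0.33 to 0.56), kept their sign in all 7 such fits. Counting error weighs most on the least abundant members, whose libraries held as few as 69 counts, against up to 9519 for the most abundant.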

Other observations

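Border macrophage markers were read to see whether other cells of the meninges differed, and microglia markers were read beside them. Neither list gave a difference past adjustment. Of 8 border macrophage markers 4 had a positive fold change and 0 an unadjusted p under 0.05. Lyve1, a hyaluronan receptor of perivascular macrophages, averaged 1.69 ± 0.931 CPM in KO/+ and 2.30 ± 0.551 CPM in WT libraries, and Stab1, a scavenger receptor, 16.5 ± 6.02 CPM in KO/+ and 20.5 ± 4.42 CPM in WT libraries (SD, n = 4 and 3). In KO/+ replicate 1 these genes stood at 36.0% and 45.6% of the median of the other libraries, and Pf4, a chemokine of the same macrophages, at 126%. That library was the lowest for 5 of the 8 border macrophage markers, beside 16.7% of all genes tested. Of 8 microglia markers 4 had a positive fold change, and Sall1, a transcription factor of microglia, averaged 9.38 ± 2.13 CPM in KO/+ and 13.1 ± 2.76 CPM in WT libraries (log2 fold change -0.49 ± 0.21, unadjusted p = 0.047).

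All 8 cerebellar granule neuron markers had a positive fold change, beside 48.8% of all genes, with a median of 0.26. Cbln1, the synapse organiser cerebellin 1, averaged 794 ± 112 CPM in KO/+ and 639 ± 67.8 CPM in WT libraries. In KO/+ replicate 1, 6 of the 8 granule neuron markers had their highest level, as did 3044 of the 16813 genes tested. All 8 dividing progenitor markers had a negative fold change, beside 48.8% of all genes with a positive one, with a median of -0.32 and 0 at an unadjusted p under 0.05. All 8 were low in KO/+ replicates 1 and 2 and WT replicate 3, so low and high libraries occurred in both genotypes. Mki67 had 63.5, 61.4 and 63.6 CPM in these libraries, against 152 to 209 CPM in the others. Of the 14 choroid plexus markers 13 had a positive fold change, beside 48.8% of all genes, and 0 an unadjusted p under 0.05. Ttr, the transthyretin of the plexus, averaged 739 ± 567 CPM in KO/+ and 317 ± 538 CPM in WT libraries.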
